A study of Canis lupus familiaris with 12 samples.

Results

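The genes described here mark the muscle of the heart's chambers. They comprise 5 genes known for the ventricle (MYL3, ENSCAFG00000008524, MYH7, IRX4 and HEY2) and 4 known for the atrium (MYL4, GJA5, NR2F2 and KCNA5), 9 of the 24223 genes listed for each tissue. They were chosen by name, with the values of diseased and control dogs in both tissues already known. Their levels and fold changes are therefore given as a description and not as a test.

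RNA was sequenced from mitral valve and left ventricle of dogs diagnosed with DMVD, degenerative disease of the mitral valve in which the leaflets thicken and leak, and of control dogs. The 12 libraries came from 8 dogs. The DMVD valve group held 3 dogs, a 9-year-old Pomeranian and Beagles aged 16 and 17 years. The control valve group held 3 dogs, an 8-year-old Beagle and Hound mixes aged 3 years. The DMVD ventricle group held 2 dogs, a 5-year-old Jack Russell Terrier and the same Pomeranian. The control ventricle group held 4 dogs, the same Beagle and Hound mixes with 1 more Hound mix aged 3 years. No treatment is named in the labels. In the valve every DMVD dog was older than every control dog, so age and diagnosis cannot be told apart, while Beagles were in both groups. In the ventricle the ages overlapped, but no breed was in both groups, so breed and diagnosis cannot be told apart. Each group has a single deposited value per gene, in FPKM, fragments scaled to gene length and to library size. No spread between dogs could be shown. Each ± gives 1 standard error (SE) on the log2 scale, worked back from the test statistic that the authors deposited, and it carries no count of replicates of its own.

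Atrial and ventricular muscle cells use partly different sets of contractile proteins, channels and transcription factors. Myosin carries an essential and a regulatory light chain. MYL3 is the essential light chain of the ventricle and of slow skeletal muscle, and MYL4 is that of the atrium and the fetal heart. The mitral leaflets hang between the left atrium and the left ventricle, and atrial muscle reaches into their base.

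The rule by symbol or gene identifier found 8 of the 9 genes. GJA5 was taken from the row with the UniProt entry name CXA5_CANFA, which lies on chromosome 17 next to ACP6, as GJA5 does in RefSeq. ENSCAFG00000008524 has no gene symbol in the tables and carries the UniProt entry name Q8WN71_CANFA. It lies on chromosome 26 (8623640 to 8632895, CanFam3.1, as the tables list it) between CCDC63 and CUX2, the place where RefSeq has MYL2, the ventricular regulatory light chain. MYL3 lies on chromosome 20 (41941314 to 41947260) and MYL4 on chromosome 9, in a listed span of 9251990 to 9353173 that it shares with the cell cycle gene CDC27. MYH7 lies on chromosome 8 (3660154 to 3677650), and its span holds the microRNA gene cfa-mir-208b. IRX4 lies on chromosome 34 (10926105 to 10930546), HEY2 on chromosome 1 (64632816 to 64639858), NR2F2 on chromosome 3 (44084152 to 44142321, in a listed span shared with a Y_RNA row at 0 and an unnamed row listed at 0 in DMVD valve and 101 FPKM in control valve) and KCNA5 on chromosome 27 (39792637 to 39811039).

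In the mitral valve the ventricular light chain genes were far lower in DMVD than in control samples, while the atrial light chain MYL4 had like values in both groups, with a wide error. MYL3 had 36.6 FPKM in DMVD valve and 1335 FPKM in control valve, 36.5-fold lower, with a log2 fold change of -5.19 ± 0.68. ENSCAFG00000008524 had 15.9 FPKM in DMVD valve and 1943 FPKM in control valve, 122-fold lower, with a log2 fold change of -6.93 ± 0.97. Both were among the highest genes of control valve, at rank 72 for MYL3 and rank 49 for ENSCAFG00000008524, and stood at ranks 1976 and 3900 in DMVD valve. Of the 8205 tested valve genes whose mean level reached 5 FPKM, 2 had a lower log2 fold change than ENSCAFG00000008524 and 3 a lower one than MYL3.

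The other ventricular genes of the valve had lower DMVD values, and none of them passed the test. IRX4, a homeobox transcription factor of ventricular muscle, was listed at 0.0135 FPKM in DMVD valve and 1.86 FPKM in control valve, a log2 fold change of -7.11 ± 2.74. With 1 FPKM added to both groups it was -1.50, beside -0.83 for HEY2 and -1.26 for MYH7, so a common size of change among these genes was neither shown nor tested. HEY2, a Notch-responsive repressor of ventricular muscle that arteries also use, had 5.68 FPKM in DMVD valve and 10.9 FPKM in control valve (-0.94 ± 0.78). MYH7, the slow beta myosin heavy chain, had 1280 FPKM in DMVD valve and 3068 FPKM in control valve, a log2 fold change of -1.26. Its SE of 7.63 leaves that value without a usable bound. MYH6, the alpha heavy chain gene beside it, was not matched to a row here. How any reads shared by the pair were assigned is not known and was not tested. MYH7 was 34.9 times as high as MYL3 in DMVD valve and 2.30 times as high in control valve.

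**Figure D1:**
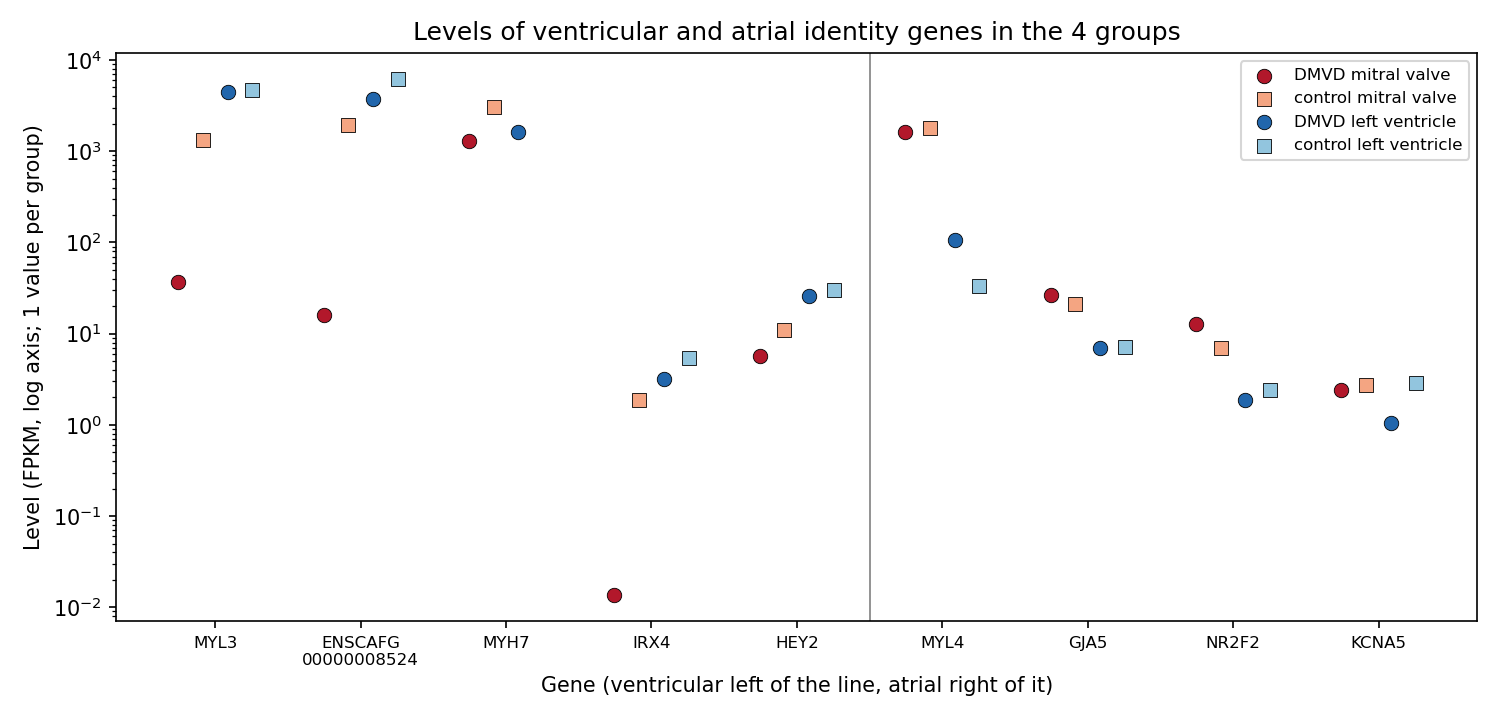
Level of each identity gene in FPKM on a log axis, 1 value per group, for DMVD and control mitral valve and DMVD and control left ventricle. MYL3, ENSCAFG00000008524 and IRX4 have their lowest point in DMVD valve, MYL4 has 1631 FPKM in DMVD valve and 1792 FPKM in control valve, and MYH7 has no measured level in control ventricle.

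The 4 atrial genes of the valve had DMVD levels nearer to their control levels than MYL3, ENSCAFG00000008524 and IRX4 had, and none passed the test. The ventricular gene HEY2, at -0.94 ± 0.78, had a change of like size to that of NR2F2, given below. MYL4 had 1631 FPKM in DMVD valve and 1792 FPKM in control valve, a log2 fold change of -0.14 ± 1.67. It ranked 57 in DMVD valve and 53 in control valve. CDC27, which shares its listed span, had 5.19 FPKM in DMVD valve and 5.12 FPKM in control valve. GJA5, the connexin 40 gap junction gene of atrial muscle, conduction fibres and arteries, had 26.6 FPKM in DMVD valve and 21.1 FPKM in control valve (0.33 ± 0.46). NR2F2, a nuclear receptor that sets atrial and venous identity, had 12.8 FPKM in DMVD valve and 6.90 FPKM in control valve (0.89 ± 0.61). KCNA5, the potassium channel of the ultrarapid atrial current, had 2.39 FPKM in DMVD valve and 2.74 FPKM in control valve (-0.19 ± 0.67). GJA5 and NR2F2 were the higher ones in DMVD valve, each within a small multiple of its SE.

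The threshold was an adjusted p of 0.05, by Benjamini-Hochberg over every gene tested in a tissue. By it 2 of the 9 genes were called lower in DMVD valve, MYL3 and ENSCAFG00000008524, and 0 higher. Among all 14810 tested valve genes 0.108% were called lower, 0.311% higher and 0.419% in either direction. The contrast is the one in view when the genes were chosen, so nothing is read from that count. Fewer cells of a type and less RNA per cell cannot be told apart in these bulk samples.

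**Figure D2:**
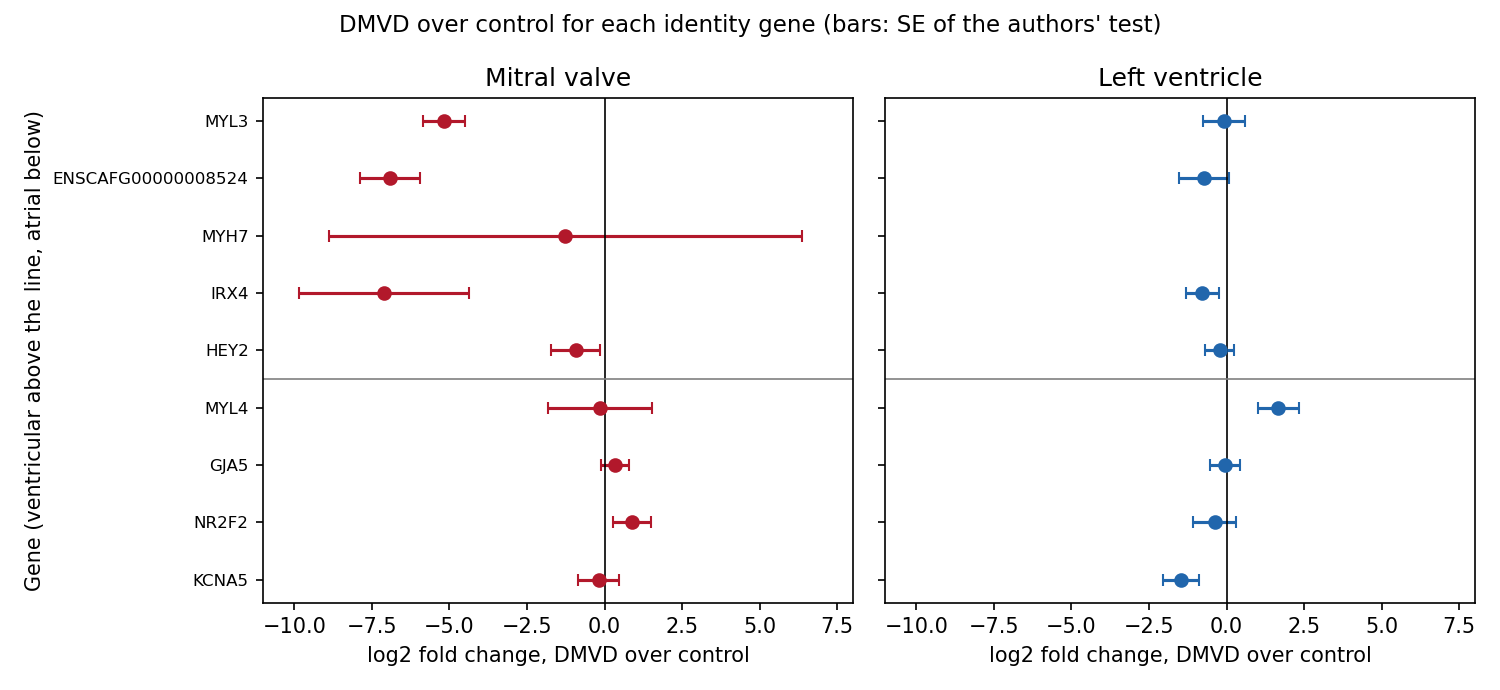
Log2 fold change, DMVD over control, of each identity gene in mitral valve (left) and left ventricle (right), with bars of 1 SE from the authors' test. In the valve MYL3, ENSCAFG00000008524 and IRX4 lie between -5.19 and -7.11, MYH7 at -1.26 and HEY2 at -0.94. The atrial genes lie between -0.19 and 0.89 there, with an SE of 1.67 for MYL4. In the ventricle the values run between -1.46 and 1.66, and MYH7 has none.

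The atrial and ventricular genes were also set against each other within a group, where a scale factor common to the whole group cancels. Each group value pools several libraries, so the scaling of single libraries can still enter these ratios. MYL4 made up 97.8% of the summed MYL3 and MYL4 level in DMVD valve and 57.3% in control valve. In the ventricle it made up 2.33% in DMVD and 0.711% in control. The 2 valve groups thus differed by 5.05 in log2 MYL4 over MYL3, and the 2 ventricle groups by 1.73. Among the transcription factors the log2 ratio of NR2F2 over IRX4 was 9.88 in DMVD valve and 1.89 in control valve, against -0.77 in DMVD ventricle and -1.16 in control ventricle. The first of these is a ratio over an IRX4 level of 0.0135 FPKM, near 0, so its size is not exact. The 4 atrial genes summed to 1673 FPKM in DMVD valve and 1822 FPKM in control valve. The 4 ventricular genes other than MYH7 summed to 58.2 FPKM in DMVD valve and 3291 FPKM in control valve. Their ratio, on a log2 scale, was 4.84 in DMVD valve and -0.85 in control valve. MYL4 made up nearly all of the atrial sum, and MYL3 and ENSCAFG00000008524 most of the ventricular one, so this ratio restates the light chain genes. No test was made of these ratios, which rest on 1 value per group.

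**Figure D3:**
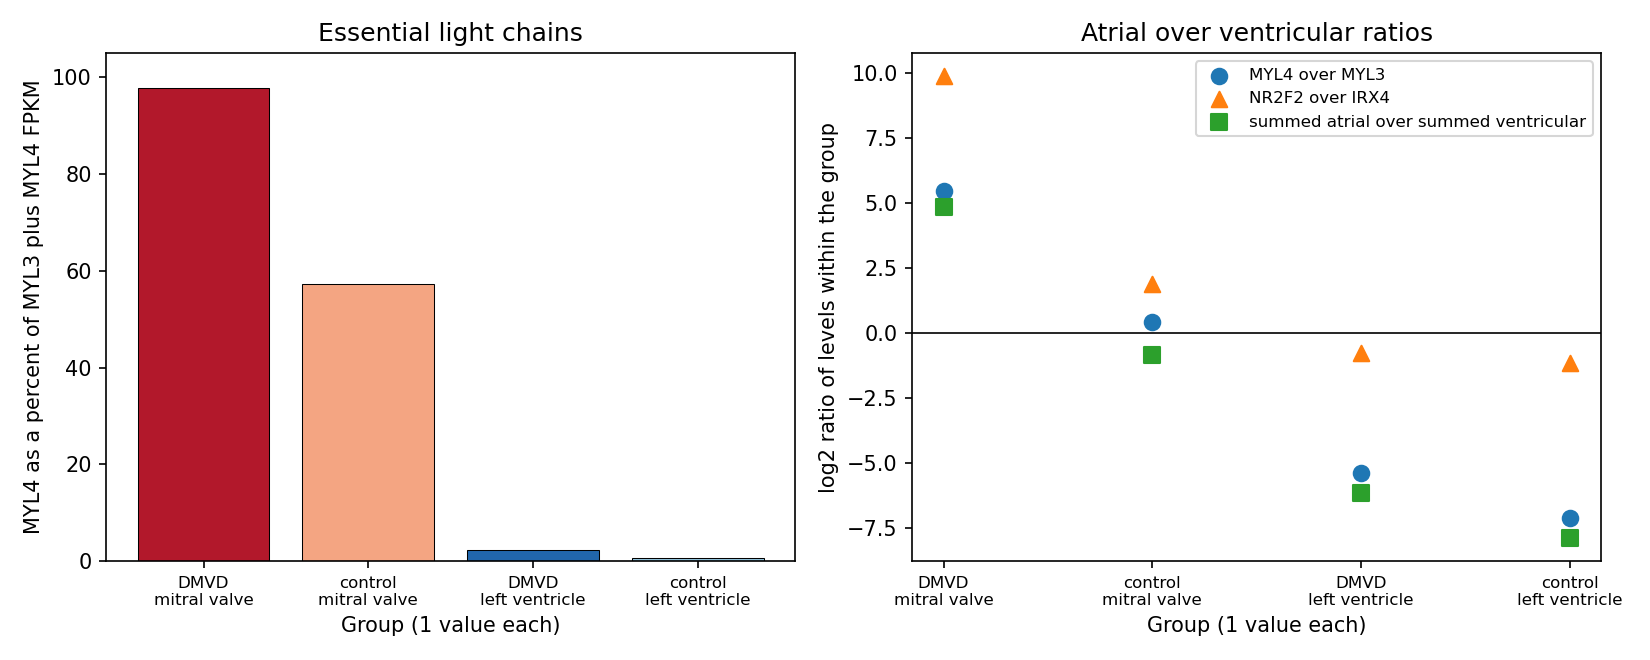
Left, MYL4 as a percent of the summed FPKM of MYL3 and MYL4 in each group; right, log2 ratios of atrial over ventricular genes within each group. The percent is 97.8 in DMVD valve, 57.3 in control valve, 2.33 in DMVD ventricle and 0.711 in control ventricle, and all 3 ratios are highest in DMVD valve.

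Genes of the same kind outside the 9 were then examined, from lists written with earlier results of these data known. Of 9 tested genes of a list of other ventricle-enriched genes, 1 fell in DMVD valve, none rose and 8 did not pass. By the authors' test 7 of the 9 had an unadjusted p under 0.05, as had 622 of all 14810 tested valve genes. Since the list was written with results known, nothing is read from that count. The 9 values were all negative, with a median of -1.34, where all tested valve genes had a median of 0.05. The one that fell was KCNJ2, the inward rectifier channel that holds the resting potential of ventricular muscle, with 0.162 FPKM in DMVD valve and 4.34 FPKM in control valve (log2 fold change -4.74 ± 1.22, adjusted p = 0.0300, Benjamini-Hochberg over the authors' p). Its log2 fold change was -2.20 once 1 FPKM was added to each group, and under Benjamini-Yekutieli adjustment the list had 0 calls. The homeobox gene IRX3 had 0.115 FPKM in DMVD valve and 1.54 FPKM in control valve (-3.75 ± 1.11, adjusted p = 0.117 from the authors' p by Benjamini-Hochberg). HAND1, a transcription factor of the left ventricle, had 2.43 FPKM in DMVD valve and 10.8 FPKM in control valve (-2.16 ± 0.65, adjusted p = 0.131 from the authors' p by Benjamini-Hochberg). The homeobox gene IRX5 had -1.99 ± 0.90 and the calcium pump inhibitor PLN -1.11 ± 0.49, and neither passed.

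Other atrium-enriched genes are given beside them, and the difference between the lists was not tested. Of 18 listed, 14 matched a single row, and MYL7, MYH6, SLN and NR2F1 did not. Of 10 tested, 0 passed in the valve and 1, KCNK3, had an unadjusted p under 0.05. KCNK3 had 1.69 FPKM in DMVD valve and 0.289 FPKM in control valve (2.55 ± 1.26). Of the 10, 8 had higher and 2 lower values in DMVD valve, with a median of 0.29. NPPA, the atrial natriuretic peptide gene, had 2878 FPKM in DMVD valve and 2984 FPKM in control valve (-0.05 ± 1.93). KCNJ3, a subunit of the acetylcholine-gated atrial channel, had 54.8 FPKM in DMVD valve and 47.6 FPKM in control valve. TBX5, a factor of the atria, had 47.3 FPKM in DMVD valve and 36.5 FPKM in control valve.

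The median of general heart muscle genes lay between those of the other ventricle-enriched and other atrium-enriched genes in the valve. The ventricle-enriched values ran from -4.74 to -0.36 and the atrium-enriched ones from -0.41 to 2.55. Both overlapped the range of the general markers. Of 23 tested pan-cardiac markers, such as troponins, titin-associated proteins and calcium store genes, 0 passed and 1 had an unadjusted p under 0.05. All but 1 had lower values in DMVD valve, with a median of -0.87 and a range of -1.65 to 0.18. Summed over 22 of them, the level was 13662 FPKM in DMVD valve and 23807 FPKM in control valve. MYL3 and ENSCAFG00000008524 lay below the lowest of these markers, and relative to their median MYL3 had a log2 fold change of -4.31. On the same footing ENSCAFG00000008524 had -6.06 and IRX4, with its level near 0 in DMVD valve, had -6.23. HEY2 had -0.062, MYH7 -0.39, GJA5 1.21, NR2F2 1.76 and KCNA5 0.68. MYL4 turned to 0.74 on that footing, from the -0.14 given above, and its SE of 1.67 is wider than either value. Valve samples of both groups held heart muscle transcripts, and how far muscle content takes part in the values above was not tested.

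**Figure D4:**
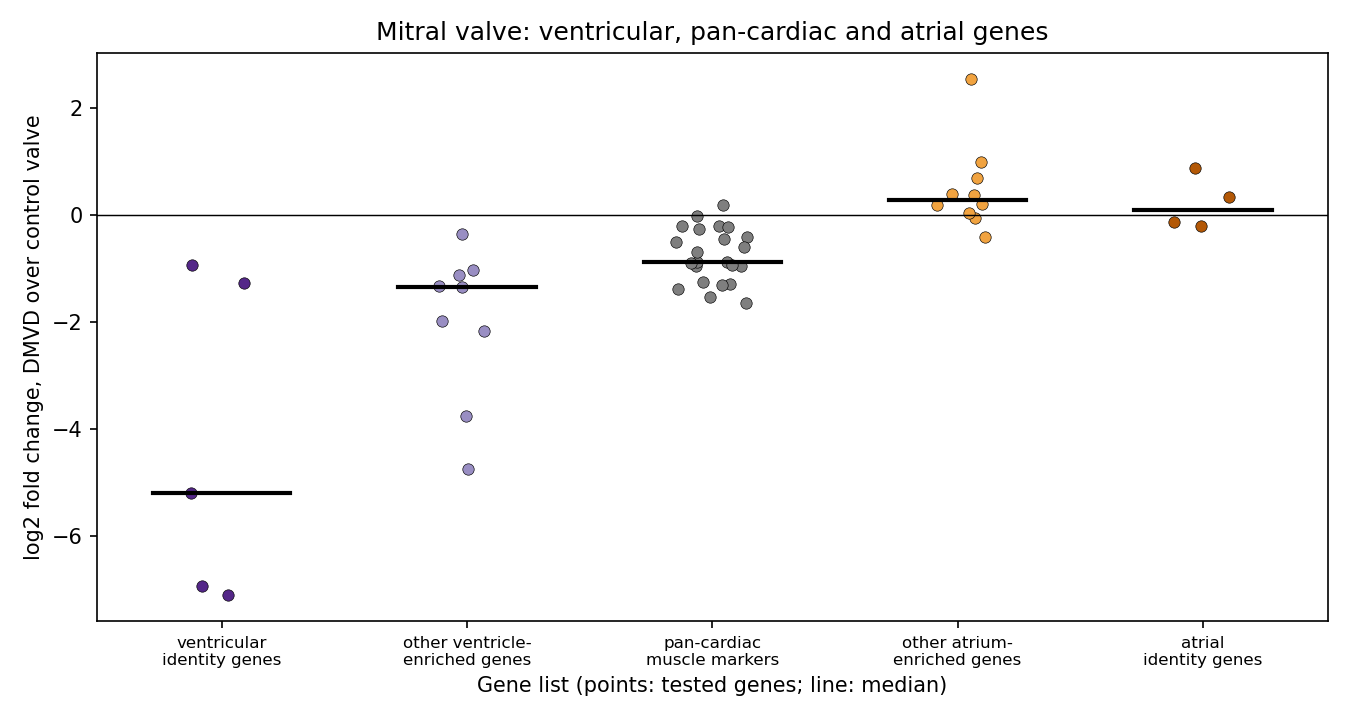
Log2 fold change, DMVD over control, of tested valve genes in 5 lists, with a line at each list's median. Other ventricle-enriched genes have a median of -1.34, pan-cardiac muscle markers -0.87 and other atrium-enriched genes 0.29.

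**Figure D5:**
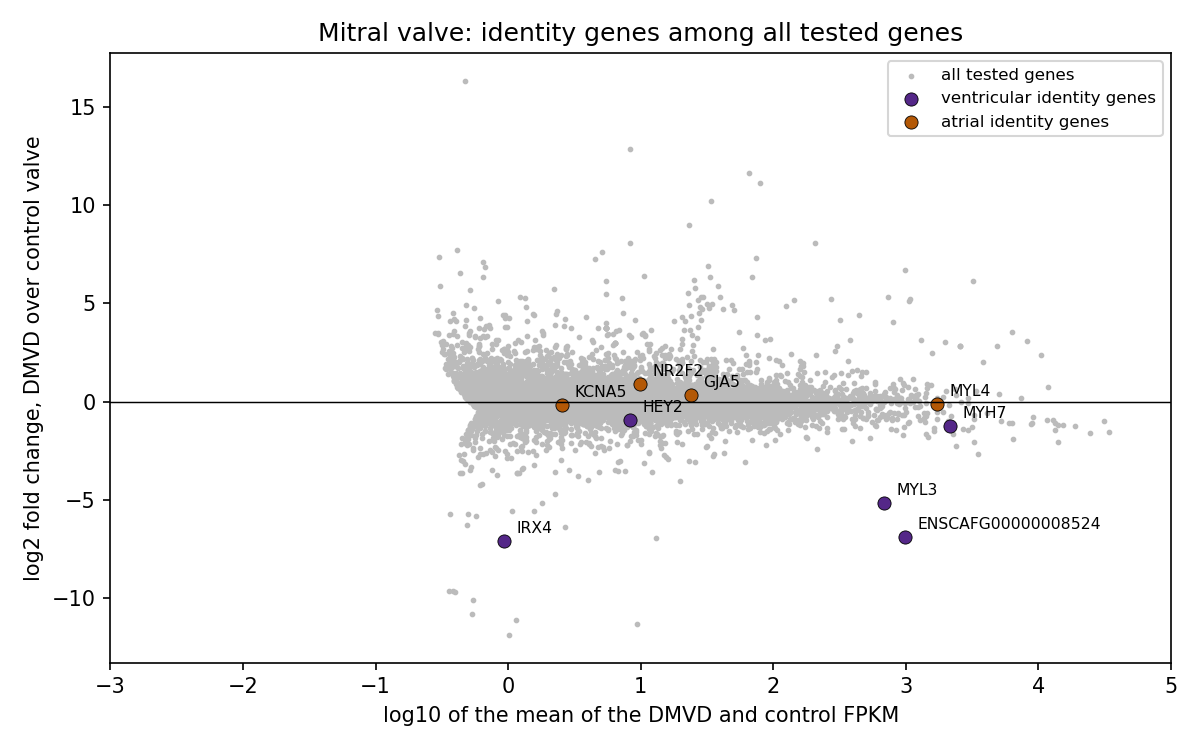
Log2 fold change, DMVD over control valve, against the log10 of the mean FPKM of both groups for all tested genes above 0 in both groups (grey), with the 9 identity genes in colour. MYL3 and ENSCAFG00000008524 stand apart from the grey points at their level, while MYL4 and MYH7, of like level, lie nearer 0.

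In the left ventricle MYL3 and ENSCAFG00000008524 had high levels in DMVD and control samples, and the atrial light chain was the one identity gene with a higher DMVD value. MYL3 had 4451 FPKM in DMVD ventricle and 4676 FPKM in control ventricle (-0.07 ± 0.67). ENSCAFG00000008524 had 3754 FPKM in DMVD ventricle and 6223 FPKM in control ventricle (-0.73 ± 0.80). MYL3 ranked 31 and ENSCAFG00000008524 ranked 42 in DMVD ventricle, against 29 for MYL3 and 26 for ENSCAFG00000008524 in control ventricle. MYH7 had 1637 FPKM in DMVD ventricle and no measured level in control ventricle, where its status marks too many fragments to be fitted. IRX4 had 3.18 FPKM in DMVD ventricle and 5.46 FPKM in control ventricle (-0.78 ± 0.52). HEY2 had 25.9 FPKM in DMVD ventricle and 30.4 FPKM in control ventricle (-0.23 ± 0.47).

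MYL4 had 106 FPKM in DMVD ventricle and 33.5 FPKM in control ventricle, 3.17-fold higher, with a log2 fold change of 1.66 ± 0.66. KCNA5 had 1.05 FPKM in DMVD ventricle and 2.89 FPKM in control ventricle, 2.75-fold lower (-1.46 ± 0.58). GJA5 had 6.88 FPKM in DMVD ventricle and 7.15 FPKM in control ventricle (-0.06 ± 0.48), and NR2F2 had 1.87 FPKM in DMVD ventricle and 2.44 FPKM in control ventricle (-0.39 ± 0.68). The atrial genes thus did not share a direction in this tissue. Of the 8 identity genes tested, 0 were called at an adjusted p of 0.05 with the authors' test, and 2 had an unadjusted p under 0.05, MYL4 and KCNA5. Among all 13788 tested ventricle genes 3.08% were called, 1.92% higher and 1.16% lower. Nothing is read from that count either.

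Relatives of MYL4 in the ventricle were mixed. NPPA rose, to 47.96 FPKM in DMVD ventricle against 12.4 FPKM in control ventricle (1.95 ± 0.53, adjusted p = 0.0125, Benjamini-Hochberg over the authors' p). It was the 1 of 8 tested atrium-enriched genes to rise, and none fell; the list had 0 calls under Benjamini-Yekutieli adjustment. MYL1, an essential light chain of fast skeletal and embryonic heart muscle, rose to 12.6 FPKM in DMVD ventricle against 1.10 FPKM in control ventricle (3.53 ± 0.80, adjusted p = 0.000973 from the authors' p by Benjamini-Hochberg). It was the 1 of 7 tested myosin light chain genes outside the 9 to rise, with none falling. In the valve 0 of 7 light chain genes passed, also without adjustment, and MYL1 had 10.5 FPKM in DMVD valve and 11.8 FPKM in control valve. Red cell transcripts moved with MYL4 in the ventricle: all 4 tested markers rose, and their sum was 3604 FPKM in DMVD ventricle and 62.6 FPKM in control ventricle. In the valve 1 of 4 rose, the globin gene HBA, and the sum was 608 FPKM in DMVD valve and 35.8 FPKM in control valve. Their part in the level of MYL4 was not tested.

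Some relatives of MYH7 and GJA5 fell in the ventricle. Of 9 tested myosin heavy chain genes 2 fell and none rose, MYH13 (-5.92 ± 0.86, adjusted p = 3.55e-09 from the authors' p by Benjamini-Hochberg) and MYH1 (-2.05 ± 0.53, adjusted p = 0.00702). Both are fast skeletal chains at a low level, with 0.0510 FPKM of MYH13 in DMVD ventricle and 3.08 FPKM in control ventricle. Once 1 FPKM was added to each group, MYH13 had -1.96 and MYH1 -1.37. Of the 2 heavy chain calls, 1 was left under Benjamini-Yekutieli adjustment. Of 4 tested connexins none rose and 1 fell, GJA1, the main gap junction gene of ventricular muscle, to 42.1 FPKM in DMVD ventricle against 164 FPKM in control ventricle (-1.96 ± 0.44, adjusted p = 0.000811, Benjamini-Hochberg over the authors' p). By the authors' test 6 of the 9 heavy chain genes and 3 of the 4 connexins had an unadjusted p under 0.05 in the ventricle. The same held for 1552 of all 13788 tested ventricle genes. Lower DMVD values were found for 8 of the 9 heavy chain genes and 2 of the 4 connexins. In the valve 0 of 8 heavy chain genes and 0 of 6 connexins passed, with 3 and 2 at an unadjusted p under 0.05. GJA1 had -0.72 ± 0.47 there. Of 11 tested other ventricle-enriched genes of the ventricle 1 fell, the muscle-restricted gene LRRC10 (-1.48 ± 0.43, adjusted p = 0.0235 from the authors' p by Benjamini-Hochberg), and none rose, with 0 calls under Benjamini-Yekutieli adjustment.

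Upstream and partner genes of HEY2, NR2F2 and KCNA5 are given next. Among all tested genes 0.419% were called in the valve and 3.08% in the ventricle, and nothing is read from the counts below. Of 11 tested Notch pathway genes the ligand DLL1 rose in the ventricle, with 7.36 FPKM in DMVD and 1.95 FPKM in control samples (1.92 ± 0.51, adjusted p = 0.0102, Benjamini-Hochberg over the authors' p), and 0 of 11 passed in the valve (1 without adjustment). The ventricle call was lost under Benjamini-Yekutieli adjustment. HEY1, the sister gene of HEY2, had 0.12 ± 0.59 in the valve and -0.15 ± 0.49 in the ventricle. Cardiac transcription factors, 11 tested in each tissue, had 0 calls in the valve (0 without adjustment) and 0 in the ventricle (2 without adjustment). Voltage-gated potassium channel genes outside KCNA5 had 0 calls of 6 in the valve and 0 of 3 in the ventricle, and 0 without adjustment.

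Across tissues the levels are set side by side only, since the tables were normalised separately. Over all genes above 1 FPKM in both tables the median log2 ratio of valve over ventricle was 0.34 in DMVD and 0.31 in control samples. In control dogs MYL3 was 3.502-fold, ENSCAFG00000008524 3.20-fold, IRX4 2.93-fold and HEY2 2.80-fold lower in valve than in ventricle, a narrow range. In DMVD samples the same genes were 122-fold, 236-fold, 235-fold and 4.57-fold lower in valve. The IRX4 ratio rests on 0.0135 FPKM in DMVD valve, so its size is not exact. Only 1 DMVD dog, the Pomeranian, gave both tissues, so the DMVD ratios also compare different dogs, breeds and ages. MYL4 was 15.4-fold higher in valve than in ventricle in DMVD samples and 53.5-fold higher in control samples. GJA5 was 3.86-fold higher in valve in DMVD and 2.95-fold higher in control samples, and NR2F2 6.84-fold and 2.83-fold higher. KCNA5 was 2.27-fold higher in valve in DMVD samples and had a ratio of 0.947 in control samples. NPPA and KCNJ3, with log2 ratios of 7.91 and 7.78 in control samples, stood further toward the valve than MYL4 did at 5.74. The KCNJ3 ratio is over 0.217 FPKM in control ventricle, near 0, so its size is not exact.

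The valve and ventricle effects of DMVD on the log2 scale differed by -5.12 ± 0.96 for MYL3, -6.20 ± 1.26 for ENSCAFG00000008524 and -6.32 ± 2.79 for IRX4, valve minus ventricle. For MYL4 the difference was -1.80 ± 1.80, for KCNA5 1.26 ± 0.89, for NR2F2 1.28 ± 0.91, for HEY2 -0.71 ± 0.91 and for GJA5 0.39 ± 0.66. The errors combine the SE of both tissues as the root of their summed squares, and ignore that 4 dogs gave both. They were not tested.

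The order of levels differed between groups. In DMVD valve MYL4 and MYH7 led, with GJA5 above ENSCAFG00000008524, and IRX4 came last. In control valve MYH7, ENSCAFG00000008524, MYL4 and MYL3 all ranked above GJA5, the next gene at 21.1 FPKM. In DMVD ventricle MYL3, ENSCAFG00000008524 and MYH7 led and MYL4 followed. In control ventricle MYH7 has no place in the order, and MYL4 came after ENSCAFG00000008524 and MYL3. Without a spread between dogs, it cannot be said which neighbours in these orders differ.

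The genes nearest in pattern were found by Euclidean distance over 3 log2 ratios, DMVD over control in ventricle and in valve, and valve over ventricle in control samples, among 7009 named genes. The nearest to IRX4 was ENSCAFG00000008524, at a distance of 0.22, followed by MYL3 at 2.06. That likeness rests on IRX4's level of 0.0135 FPKM in DMVD valve, and its valve log2 fold change was -4.11 with 0.1 FPKM and -1.50 with 1 FPKM added. Candidates needed a mean of at least 5 FPKM in at least 1 tissue. IRX4 did not reach it, so it was no candidate for ENSCAFG00000008524 despite the distance of 0.22. Among the candidates the nearest to ENSCAFG00000008524 were MYL3 (1.87) and KCNJ2 (2.25). The nearest candidate to MYL3 was KCNJ2 (1.26), with LEAP2 (1.64) and AQP7 (1.77) after it. LEAP2 had 1.87 FPKM in DMVD valve and 22.5 FPKM in control valve. HEY2 had PRADC1 (0.16), COX7A1 (0.19) and LYRM5 (0.21) nearest, and MYL4 had GEM (0.41), FIBIN (0.86) and the row MYOC_CANFA (0.88). GJA5 had the row STXB2_CANFA (0.13), APLP1 (0.16) and PIGQ (0.18), NR2F2 had SCPEP1 (0.12), TCF21 (0.24) and PCOLCE2 (0.27), and KCNA5 had ADCY5 (0.12), DGCR2 (0.17) and the small RNA U12 (0.21). These distances rest on 4 group values per gene and describe likeness only.

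Several identity genes are also used outside heart muscle, and markers of those cells are given beside them. Pan-endothelial markers had higher DMVD values in all 8 tested genes of each tissue. EMCN rose in the valve (2.37 ± 0.53, adjusted p = 0.00574 from the authors' p by Benjamini-Hochberg), VWF (1.79 ± 0.49) and ROBO4 (1.68 ± 0.43) rose in the ventricle, and the sum was 133 FPKM in DMVD valve and 65.6 FPKM in control valve, 188 FPKM in DMVD ventricle and 89.2 FPKM in control ventricle. Under Benjamini-Yekutieli adjustment the pan-endothelial calls of both tissues and that of PDPN in the valve, named next, were lost. Of 9 arterial markers 0 passed in the valve, with or without adjustment, and SOX17 rose in the ventricle (2.28 ± 0.47). Their sum was 63.2 FPKM in DMVD valve and 50.5 FPKM in control valve, 65.3 FPKM in DMVD ventricle and 43.1 FPKM in control ventricle. Of 8 venous and lymphatic markers PDPN rose in the valve (2.04 ± 0.48), and in the ventricle LYVE1 rose (2.08 ± 0.47) and APLNR fell (-3.20 ± 0.67). Their sum was 83.7 FPKM in DMVD valve and 104 FPKM in control valve, 84.9 FPKM in DMVD ventricle and 55.4 FPKM in control ventricle. The sums and medians of this list differed in sign: the median log2 fold change was 0.20 in the valve and -0.35 in the ventricle. The lymphatic chemokine gene CCL21 alone had 12.0 FPKM in DMVD valve and 73.6 FPKM in control valve (-2.61 ± 1.86, not passed), more than the gap between the valve sums. Their part in GJA5, HEY2 and NR2F2 was not tested.

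Of 10 tested smooth muscle and pericyte markers 0 passed in either tissue (2 without adjustment in each), with a sum of 1766 FPKM in DMVD valve and 862 FPKM in control valve, 321 FPKM in DMVD ventricle and 244 FPKM in control ventricle. Of 7 fibroblast and valve interstitial markers 0 passed in the valve, also without adjustment. In the ventricle POSTN rose (3.64 ± 0.99, a call lost under Benjamini-Yekutieli adjustment) and none fell. Their sum was 2963 FPKM in DMVD valve and 2237 FPKM in control valve, 392 FPKM in DMVD ventricle and 371 FPKM in control ventricle. Conduction system markers had 0 calls of 4 in the valve and 0 of 2 in the ventricle, also without adjustment, with a sum of 25.1 FPKM in DMVD valve and 20.2 FPKM in control valve, 3.451 FPKM in DMVD ventricle and 3.096 FPKM in control ventricle. Fast skeletal muscle markers had 0 calls of 4 in the valve, also without adjustment, and MYL1 higher and MYH1 lower of 3 in the ventricle (1 call left under Benjamini-Yekutieli adjustment). Their sum was 15.5 FPKM in DMVD valve and 16.9 FPKM in control valve, 14.8 FPKM in DMVD ventricle and 6.74 FPKM in control ventricle. In the ventricle 0 of 22 pan-cardiac markers passed, also without adjustment, with a median of -0.21 and a sum of 35723 FPKM in DMVD and 39058 FPKM in control samples.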

How the data were processed

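RNA of 12 libraries was sequenced from TruSeq preparations of RNA extracted with a kit for fibrous tissue, per the labels' protocols. Cutadapt, Bowtie, TopHat and the build CanFam3.1 are named in the submitters' processing notes. Of the program behind the gene tables, the sources used here give no name. The authors deposited 1 table per tissue with group values read as FPKM from the column layout. They also deposited a test statistic, a score whose sign is that of DMVD over control, and a p-value not adjusted for the number of genes, per the file headers and values. Depth per library is unknown.

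Log2 fold changes were computed as DMVD over control. The deposited p matched a two-sided p of the statistic under a normal distribution (largest gap 2.84e-06 in the ventricle and 2.64e-06 in the valve), so the SE is the fold change divided by the statistic. The p-values were adjusted by Benjamini-Hochberg over all genes with status OK in a tissue, at 0.05. The step was tested on simulated data. A 0 with status HIDATA was treated as no level. Members and lists were chosen with earlier results of these data known. The 17 lists outside the members held 191 gene names, of which 158 matched 1 row, 19 UniProt entry names having been translated. RefSeq gene order (assembly UU_Cfam_GSD_1.0) served for neighbours only. Genes named were all 9 members, up to 4 list members past the threshold with the smallest p, a few fixed relatives, and the 3 genes nearest in pattern with a mean of at least 5 FPKM in 1 tissue. IRX3, IRX5, HAND1, PLN, KCNJ3, KCNK3, TBX5, CCL21 and CDC27 were named after their values were seen. Alternatives were a filter at 1 FPKM, another adjustment, pseudocounts of 1 and 0.1 FPKM, and other scalings. Work was done in Python 3.11.15 with pandas 2.3.3, numpy 2.4.6, matplotlib 3.10.9 and scipy 1.17.1.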

Additional observations from a re-analysis of the deposited data

How the results depend on the processing

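No paired analysis was possible because the tables hold 1 value per group, and for the same reason no dog could be left out. Counts of calls moved by more than 1.5 times only under Benjamini-Yekutieli adjustment, to 221 genes in the ventricle (425 before) and 15 in the valve (62 before). Counts by list, whose alternatives were added after the data were seen, then fell to 0 for other ventricle-enriched genes, other atrium-enriched genes, Notch, pan-endothelial and fibroblast markers in the ventricle and for other ventricle-enriched, venous and pan-endothelial markers in the valve, and to 1 for myosin heavy chains and fast skeletal markers in the ventricle. IRX4 in the valve had -1.50 with 1 FPKM and -4.11 with 0.1 FPKM added to both groups. Relative to the pan-cardiac median, valve values were -4.31 for MYL3, -6.06 for ENSCAFG00000008524, -6.23 for IRX4, -0.39 for MYH7 and -0.062 for HEY2. Those of the atrial genes were 1.21 for GJA5, 1.76 for NR2F2 and 0.68 for KCNA5, and MYL4 turned from -0.14 to 0.74, within its SE. With mean log2 levels in place of sums, the atrial over ventricular ratio was 3.71 in DMVD valve and -1.55 in control valve, -4.97 in DMVD ventricle and -5.36 in control ventricle. Shifting by the median of all genes moved no value of the 9 genes by more than its SE. What sets the limits is the single value per group: depth is unknown, and MYH7 and MYL4 have wide errors in the valve.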

Other observations

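Among the 16 valve genes called lower in DMVD (adjusted p under 0.05, Benjamini-Hochberg over the authors' p), MYL3 and ENSCAFG00000008524 had the smallest p. Other muscle genes stood beside them, singled out after their values were seen. MYOT, a protein of the Z-disc, had 1.04 FPKM in DMVD valve and 11.7 FPKM in control valve (log2 fold change -3.49 ± 0.67). LRRC39, a protein of the sarcomere's M-band, had 12.9 FPKM in DMVD valve and 110.0 FPKM in control valve (-3.09 ± 0.67). CA3, the carbonic anhydrase of slow skeletal muscle, had 3.83 FPKM in DMVD valve and 27.3 FPKM in control valve (-2.83 ± 0.64).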
